A study of Homo sapiens with 6 samples.

Results

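Myc peaks were examined at 10 genes that encode amino acid transporters of the plasma membrane, out of 20136 protein-coding genes annotated on chromosomes 1 to 22, X and Y. The genes were given as a list: SLC7A5, SLC3A2, SLC7A6, SLC7A11, SLC1A5, SLC1A4, SLC7A1, SLC38A1, SLC38A2 and SLC38A5. A peak was assigned to a gene when its summit, the position of the highest read pileup, lay no more than 5 kb from any TSS (transcription start site) that GENCODE v44 gives the gene. A peak within reach of several genes was counted for each of them. The data were Myc chromatin immunoprecipitation sequencing (ChIP-seq) libraries of parental MDA-MB-231 cells, a triple-negative breast cancer line not edited at TXNIP, and of TKO cells, in which TXNIP had been disrupted with CRISPR-Cas9. There were 2 Myc libraries per cell line, and the other 2 of the 6 samples were input chromatin, used only as the control for peak calling. By title there was 1 input per cell line. The spread between the Myc libraries of a line thus holds no spread between inputs. TKO cells came from knockout clones grown from single cells, so a difference between the cell lines cannot be told apart from a difference between a clone and its parental population. Both lines were grown, per the study's methods, in DMEM with fetal bovine serum and added non-essential amino acids, without further treatment, and the sample labels do not say that same-group libraries were separate cultures. The paper describes the Myc libraries as biological replicates, 2 for each cell line. P-values measure only the spread between these libraries.

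Myc is a transcription factor of the basic helix-loop-helix leucine zipper family that pairs with MAX and binds the E-box CACGTG, related hexamers and many active promoters. Tumour cells take up essential amino acids and glutamine through a small number of carriers, several of which work as exchangers, so that export of a substrate such as glutamine drives import of another such as leucine. SLC3A2 is the shared heavy chain that brings several SLC7 light chains to the cell surface, and SLC1A5 and the SLC38 carriers supply neutral amino acids that the exchangers use. TXNIP, the thioredoxin interacting protein, restrains glucose uptake and is itself controlled by Myc and its relatives.

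The authors' peak lists held 3720 and 5719 peaks in parental replicates 1 and 2 and 27213 and 25887 in TKO replicates 1 and 2. The reads of each summit were recovered from the deposited fold and p-value, which gave 26.4 and 22.2 M Myc reads for the parental replicates and 19.9 and 13.0 M for TKO, under an assumed genome size. The shorter lists therefore came from the deeper libraries. Peak height is given below as summit over genome background, the pileup at the summit divided by the pileup expected across the genome of the same library, which needs no such assumption. The 100 weakest peaks of a list had a median summit of 18.2 and 16.9 times the genome background in the parental libraries, against 12.6 and 13.4 in TKO, so that a peak of the same height could be listed in TKO and missing in the parental line. TXNIP had no peak within 5 kb in any library, and peak lists cannot check the knockout itself. Of 5 basal and mesenchymal marker genes (VIM, CD44, AXL, CAV1 and MSN), 5 were called in both TKO lists, 0 in parental replicate 1 and 2 in parental replicate 2. Of 5 luminal genes, only ERBB2 had a peak, in all 4 libraries. Of all protein-coding genes, 13.9% and 15.5% had a peak in the parental replicates and 54.6% and 55.4% in TKO. A Myc peak is not expression, and with 5 genes per list these counts cannot check the cell type.

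Myc peaks lay near more of the transporter genes in TKO than in the parental line, as they did near genes in general. Of the 10 genes, 3 had a peak in parental replicate 1, where 13.9% of all genes did, and 5 had a peak in parental replicate 2, where 15.5% did. In TKO, 8 genes had a peak in replicate 1, against 54.6% of all genes, and 8 in replicate 2, against 55.4%. The mean was 4 ± 1.41 genes in the parental line and 8 ± 0 in TKO (SD, n = 2 each), and the groups did not overlap. The exact two-sided permutation test over libraries gave p = 0.333. With 2 libraries in each group no smaller value is possible, so no such test here could pass 0.05. With each list cut to its 3720 peaks of highest fold, 3 and 5 transporter genes were called in the parental line and 5 and 6 in TKO, where 13.9%, 10.9%, 15.7% and 16.1% of all genes were. The difference in means then fell from 4 genes to 1.5, the groups met at 5 genes, and 1 gene in place of 3 was called in both TKO and no parental library. In the full lists, the number of peaks within 5 kb of these genes was 4 and 7 in the parental libraries and 20 and 19 in TKO, a 3.55-fold higher mean in TKO. The whole lists held 3720 and 5719 peaks in the parental line and 27213 and 25887 in TKO. The mean share of all genes with a peak was 3.74-fold higher in TKO. The rise in peaks near the transporter genes is thus no result about these genes.

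The 10 genes fell into different patterns. SLC3A2, SLC1A5 and SLC38A1 had a peak in all 4 libraries, a pattern held by 10.9% of all genes. SLC7A5, SLC7A6 and SLC38A2 had a peak in both TKO and in no parental library, as 32.4% of all genes did. SLC7A1 had a peak in both TKO libraries and in parental replicate 2 but not replicate 1, as 4.37% of genes did. SLC7A11 was listed in parental replicate 2 and TKO replicate 1 and in neither other library, a pattern held by 22 genes, SLC7A11 included, or 0.109% of all. SLC1A4 had a peak in TKO replicate 2 alone, as 4.71% of genes did. SLC38A5 had none, as 40.6% of genes.

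Overlapping peaks of the 4 libraries merged into 23 sites near these genes. Of these, 4 sites were called in all 4 libraries, 9 in both TKO and no parental library, and 8 in a single TKO library. Over the 20786 sites merged in the same way near all genes, these classes held 10.7%, 46.1% and 34.3%. The 4 sites include an SLC3A2 site whose parental peaks did not overlap each other and were joined by TKO peaks. No site of the transporter genes was called in a parental library and in neither TKO library, and 0.419% of all sites were.

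**Figure D1:**
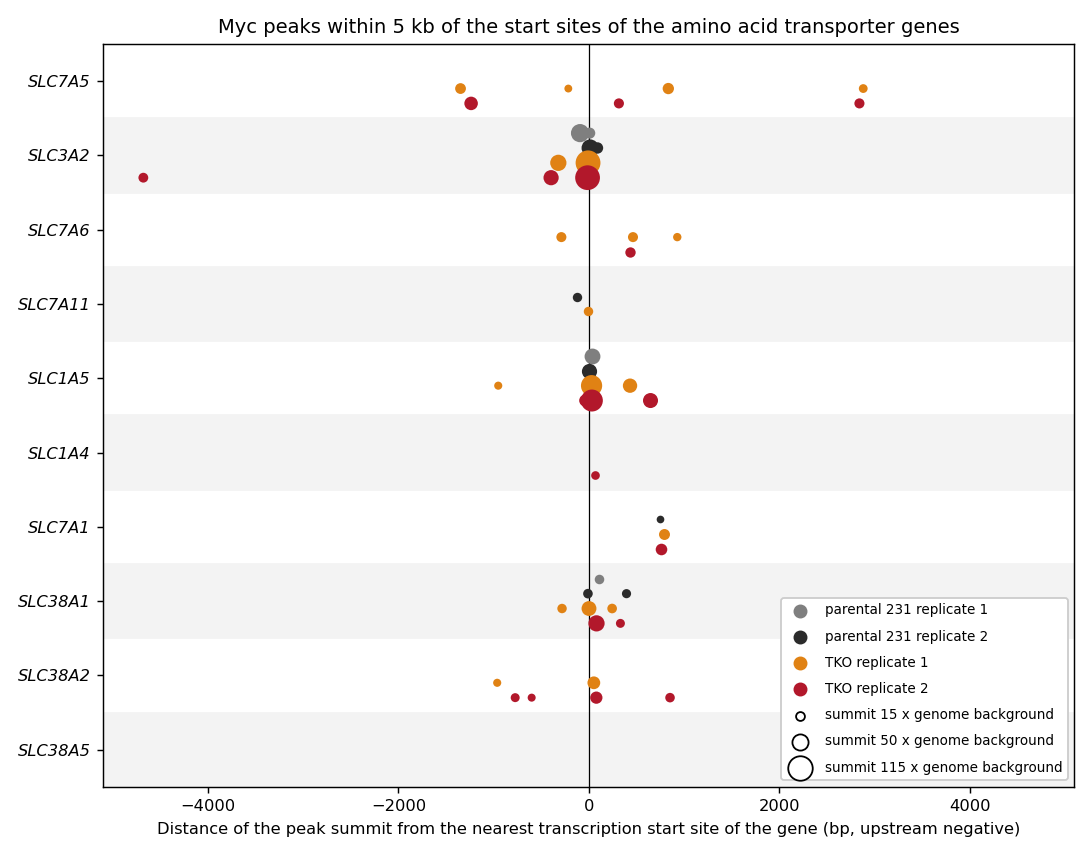
Each point is a Myc peak within 5 kb of a TSS of an amino acid transporter gene, placed by the distance of its summit from the nearest TSS of that gene (bp, upstream negative), coloured by library and sized by its summit over genome background. The 4 lanes of a gene are the 4 libraries. The largest points, those of SLC3A2 and SLC1A5, sit at the TSS in every library, SLC7A5 and SLC7A6 have points in the TKO lanes only, and the SLC38A5 row is empty.

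SLC3A2 encodes the heavy chain CD98, or 4F2hc, which carries light chains such as those of SLC7A5, SLC7A6 and SLC7A11 to the membrane. The gene lies on the plus strand of chromosome 11, with 7 start sites between positions 62623476 and 62649171 (GRCh37, the build of the files). It had the highest Myc summits of the 10 genes. The strongest peak stood at 63.5 and 56.4 times the genome background in parental replicates 1 and 2 and at 118.3 and 117.5 times in TKO replicates 1 and 2. Both TKO values were above both parental values, and the replicates of a group lay close together (60.0 ± 5.00 in the parental line against 118 ± 0.566 in TKO, SD, n = 2 each). The TKO-to-parental ratio was 1.97, and the exact permutation test gave p = 0.333. Among the 2187 genes with a peak in all 4 libraries, the median ratio was 1.93 with quartiles of 1.68 and 2.17, so on this scale the ratio at SLC3A2 lay near the median. It was 3.57 by the authors' fold over local background and 3.25 with the peak nearest a TSS. The latter value compares different sites. In parental replicate 1 the nearest peak was a lower one at the downstream start sites, at 23.4 times the background. A TKO value above both parental values was the rule among these genes, at 95.2% of them.

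The peak of SLC3A2 rested on 87 and 70 reads at the summit in the parental libraries and on 159 and 114 in TKO. By the authors' fold over local background, it ranked 521 of 3720 and 3031 of 5719 in the parental line, and 139 of 27213 and 148 of 25887 in TKO. As a percentile, in which the peak of highest fold in a list is near 100, these ranks were 86.0 and 47.0 in the parental line and 99.5 and 99.4 in TKO. The parental replicates thus differed widely in rank at nearly the same height. The local background under the summit was 8.0 and 13.0 reads in the parental libraries and 5.65 and 4.22 in TKO. The percentile rose by 33.0 points on average in TKO, but by 13.5 points without parental replicate 2 and by 52.5 without parental replicate 1. It rose by 5.19 points when peaks were ranked by p-value. The 73.1 points found with the peak nearest a TSS again compare different sites. Peak widths were 674 and 663 bp in the parental line and 1178 and 1052 bp in TKO.

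The summits of SLC3A2 lay at −92 and 14 bp from the nearest of its start sites in the parental line and at −8 and −13 bp in TKO. That start site was the first one except for parental replicate 2, whose summit lay nearest a later one. SNHG1, a non-coding gene that hosts small nucleolar RNAs, starts on the opposite strand, and its TSS was 6 to 219 bp from these summits. A peak at this promoter cannot be told apart between the genes. The promoter stretch under the TKO summits, from the edge of the window 75 bp upstream of the replicate 2 summit to the last base before the TSS, is shown because it held no CACGTG but 3 matches to the related hexamers, which are CACGCG, the form CATGTG, the form CACGAG and the form CATGCG, searched on both strands. The matches are in capitals, and the longer run in capitals is CATGCG on both strands, overlapping.
SLC3A2 promoter, chr11:62623388-62623475, plus strand: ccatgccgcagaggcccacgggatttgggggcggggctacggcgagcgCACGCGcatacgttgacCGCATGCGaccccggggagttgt

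A second SLC3A2 site, at the downstream start sites, held a peak of all 4 libraries once peaks were merged. The parental peaks, at 62649100 to 62649284 in replicate 1 and 62648334 to 62648555 in replicate 2, did not overlap each other. Only the wider TKO peaks joined them, so neither parental peak was repeated in the other replicate. The summits of this site were 23.4 and 24.98 times the genome background in the parental line, at these different places. In TKO they were 50.6 and 44.3 times. TKO replicate 2 held a further peak 4678 bp upstream, at 18.5 times the background.

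SLC7A5 encodes LAT1, the light chain that pairs with SLC3A2 and imports leucine and other large neutral amino acids. On the minus strand of chromosome 16 it has start sites at 87897245 and 87903113. Neither parental library had a peak within 5 kb, and the nearest parental summits were 81701 and 56704 bp away. TKO replicate 1 had 4 peaks and TKO replicate 2 had 3. They formed 4 sites, of which 3 were called in both TKO libraries. The replicates disagreed on the strongest of them.

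In TKO replicate 1 the strongest peak lay 835 bp downstream of the TSS in an intron, at 24.5 times the genome background and the 77.8th percentile. In TKO replicate 2 the strongest peak lay 1236 bp upstream of the TSS, outside the gene, at 35.03 times the background and the 91.3th percentile. At the upstream site replicate 1 stood at 22.3 times the background. The replicate 2 peak that overlapped the intronic peak stood at 19.6 times, with its summit 316 bp downstream of the TSS in coding sequence. Another shared site, 2882 and 2842 bp downstream of the second TSS, stood at 14.9 and 19.6 times. The heights of the shared SLC7A5 sites thus ran from 14.9 to 24.5 times in replicate 1 and from 19.6 to 35.03 times in replicate 2. Their order depended on the replicate. Apart from the 35.03 of TKO replicate 2, these heights were below the highest of the 100 weakest parental peaks, at 29.2 times the background in replicate 1 and 25.8 times in replicate 2.

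SLC7A5 held more E-boxes under its peaks than any other gene of the list, with 5 distinct copies of CACGTG. Its copies are shown with 12 bases to either side, in the direction of the gene and with the E-box in capitals, because this is the canonical Myc site.
SLC7A5 E-box in the promoter, 127.5 bp upstream of the TSS, chr16:87903226-87903255, minus strand: ggccggacgacgCACGTGctccgagctggg
SLC7A5 E-box in the intron, 777.5 bp downstream, chr16:87902321-87902350, minus strand: ggtcccagaaacCACGTGcgtttctttcat
SLC7A5 E-box in the intron, 966.5 bp downstream, chr16:87902132-87902161, minus strand: ttgcgtggcaccCACGTGgagtaactgagc
SLC7A5 E-box in the intron, 2523.5 bp downstream of the second TSS, chr16:87894707-87894736, minus strand: gcagggacaggaCACGTGtatgcatgcaga
SLC7A5 E-box in the intron, 2704.5 bp downstream of the second TSS, chr16:87894526-87894555, minus strand: gggtggccacagCACGTGcgtgcctccggg

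The summits did not sit on these copies. The nearest was 57.5 bp from the strongest summit of TKO replicate 1, and the same copy was 461.5 bp from the summit of that site in replicate 2. The promoter copy was 87.5 bp from the summit of a weak peak of TKO replicate 1, at 11.9 times the background. The upstream site that was strongest in TKO replicate 2 held no CACGTG. The sequence around its summit is shown for comparison, with no match to any of the E-box hexamers.
SLC7A5 upstream summit, chr16:87904274-87904424, minus strand: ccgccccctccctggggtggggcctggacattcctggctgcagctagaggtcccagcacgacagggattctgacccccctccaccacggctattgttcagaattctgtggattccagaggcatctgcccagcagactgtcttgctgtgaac

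SLC7A6 encodes y+LAT2, another light chain of SLC3A2, which exchanges cationic amino acids for neutral ones together with sodium. It lies on the plus strand of chromosome 16, with 3 start sites between 68298419 and 68298463. No parental library had a peak, the nearest parental summits being 46455 and 46515 bp away. The strongest TKO peaks stood at 19.3 and 20.6 times the genome background, at the 83.6th and 81.1th percentile. Both lay in the first part of the gene, 464 and 435 bp downstream of the TSS in an intron, and their widths were 565 and 570 bp. The replicates were nearly identical in place, height and width. TKO replicate 1 had further peaks at −288 and 929 bp. The sequence at the shared summit is shown as a GC-rich Myc summit without E-box letters, since neither CACGTG nor the related hexamers occurred in it.
SLC7A6 intron, chr16:68298852-68299002, plus strand: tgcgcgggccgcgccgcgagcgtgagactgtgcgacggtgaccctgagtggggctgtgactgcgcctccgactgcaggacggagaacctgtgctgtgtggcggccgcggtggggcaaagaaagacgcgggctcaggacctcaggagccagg

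SLC7A11 encodes xCT, the light chain that imports cystine in exchange for glutamate and feeds glutathione synthesis. It lies on the minus strand of chromosome 4 with a single start site at 139163503. Its peak was called in parental replicate 2 at 16.9 times the genome background and in TKO replicate 1 at 17.1 times, and in neither parental replicate 1 nor TKO replicate 2. The nearest summits in those libraries were 773094 and 668899 bp away. The heights where called were alike, yet the percentiles were 87.4 in parental replicate 2 and 20.1 in TKO replicate 1. The local background under the summit was 1.89 reads in the former and 4.84 in the latter. These peaks rested on 21 reads (exact Poisson 95% interval 13.0 to 32.1) and 23 reads (14.6 to 34.5). Such intervals cover counting error only. SLC7A11 thus did not follow the cell lines, since the replicates of each line disagreed.

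The summits of SLC7A11 lay 124 bp and 8 bp upstream of the TSS. The stretch between them held 2 copies of the ATF4 with C/EBP motif TGATGNAA in opposite directions, the letters by which the amino acid response factor ATF4 is known to act on its targets. They lay 72.5 and 91.5 bp upstream of the TSS, and 51.5 and 32.5 bp from the parental summit. Both copies are in capitals below, as is a CATGTG hexamer beside them. This motif occurred within 150 bp of the strongest summit at 2.30% of genes in parental replicate 2 and at 1.91% in TKO replicate 1.
SLC7A11 promoter, chr4:139163552-139163702, minus strand: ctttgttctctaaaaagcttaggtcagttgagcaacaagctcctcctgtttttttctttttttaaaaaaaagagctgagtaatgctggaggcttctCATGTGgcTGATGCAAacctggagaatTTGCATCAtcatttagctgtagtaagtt

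SLC1A5 encodes ASCT2, a sodium-dependent exchanger of glutamine and other small neutral amino acids. On the minus strand of chromosome 19 it has 4 start sites, between 47288081 and 47291851. Its peak at the first exon had the highest percentile of the 10 genes in 3 of the 4 libraries, and came after SLC3A2 in TKO replicate 1. The summit stood at 48.2 and 44.3 times the genome background in the parental line and at 86.3 and 92.7 times in TKO. The groups did not overlap, at 46.2 ± 2.72 in the parental line against 89.5 ± 4.56 in TKO (SD, n = 2 each), with a ratio of 1.94 and an exact permutation p of 0.333. This ratio too was close to the median of 1.93 over all genes with a peak in all 4 libraries.

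The percentile of the SLC1A5 peak was 95.6 and 98.1 in the parental line and 99.4 and 99.7 in TKO. The ranks were 164, 108, 159 and 89, so the place of this peak from the top of the list hardly moved while the lists grew several-fold. Its percentile rose by 2.69 points, the smallest rise of the 3 genes called in all 4 libraries, from a start near the top. It was 0.329 points when each list was cut to its 3720 peaks of highest fold. With the peak nearest a TSS in place of the strongest the difference turned, to −17.2 points and a summit ratio of 0.582. The summits fell within 37 bp of the same TSS, in the annotated UTR, and widths were 244 and 316 bp in the parental line and 714 and 830 bp in TKO. The lncRNA ENSG00000275719 overlaps the site, and its start site was 742 to 779 bp from the summits.

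TKO libraries held peaks at SLC1A5 that parental libraries did not. A site at the downstream TSS stood at 33.5 and 26.8 times the genome background in TKO. A site inside the gene was called at 39.4 times the background in TKO replicate 1, as 1 wide peak, and as 2 peaks of 43.3 and 21.6 times in replicate 2. TKO replicate 1 alone had a further peak, at 12.6 times. None of these was called in a parental library. The site inside the gene was the only place on the list where a CACGTG lay within 50 bp of a summit. A copy lay 12.5 bp from the TKO replicate 1 summit and 227.5 bp from a replicate 2 summit. Another lay 21.5 bp from the second summit of replicate 2, and it spans an annotated internal start site of SLC1A5, with its centre 1.5 bp downstream of it. The summit window with the intronic copy and the letters around the other copy are shown, with CACGTG in capitals.
SLC1A5 intron, chr19:47290091-47290241, minus strand: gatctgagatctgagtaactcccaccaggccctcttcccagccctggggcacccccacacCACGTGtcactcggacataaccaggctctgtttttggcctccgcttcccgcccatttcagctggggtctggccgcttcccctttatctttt
SLC1A5 internal start site, chr19:47290583-47290612, minus strand: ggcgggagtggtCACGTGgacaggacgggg

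Over the 4 libraries, the genes whose percentiles were most like those of SLC1A5 among the 2187 genes with a peak in every library were NOP58, RPL6 and RPL32. NOP58 is a core protein of the box C/D small nucleolar ribonucleoproteins, and RPL6 and RPL32 are proteins of the large ribosomal subunit. The largest percentile difference in any library was 0.336 points for NOP58, 0.612 for RPL6 and 0.726 for RPL32.

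SLC1A4 encodes ASCT1, the close relative of SLC1A5 that carries alanine, serine and cysteine. On the plus strand of chromosome 2 it has start sites at 65215624 and 65216533. Only TKO replicate 2 had a peak, 68 bp downstream of the second TSS. It was among the weakest of its list, with 14 reads at the summit (exact Poisson 95% interval 7.65 to 23.5), 14.4 times the genome background, the 13.9th percentile and a width of 201 bp, the narrowest width in the list. TKO replicate 1 had its nearest summit 13006 bp away, so the replicates of TKO disagreed here. The start site lay beside another copy of the ATF4 with C/EBP motif, 3.5 bp upstream, shown with the motif in capitals.
SLC1A4 start site, chr2:65216515-65216544, plus strand: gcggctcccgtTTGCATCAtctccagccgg

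SLC7A1 encodes CAT1, the carrier of arginine and lysine. On the minus strand of chromosome 13 it has a single start site, at 30169825. Parental replicate 1 had no peak, and its nearest summit was 328520 bp away. Parental replicate 2 had a peak of 11.3 times the genome background, and TKO replicates 1 and 2 had peaks of 23.1 and 25.8 times. The only parental value was thus below both TKO values, and it rested on 14 reads against 31 and 25. Percentiles were 77.9 in parental replicate 2 and 93.1 and 93.0 in TKO. The summits lay 746, 793 and 759 bp downstream of the TSS, in an intron, where the bases within 100 bp of the summit were 73.6% to 75.6% G or C. Widths were 328, 877 and 704 bp. The SLC7A1 window is shown as the most GC-rich of those printed, with its CACGAG in capitals.
SLC7A1 intron, chr13:30168957-30169107, minus strand: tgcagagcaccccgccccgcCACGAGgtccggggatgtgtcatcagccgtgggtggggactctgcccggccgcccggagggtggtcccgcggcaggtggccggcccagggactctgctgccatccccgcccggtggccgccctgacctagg

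SLC38A1 encodes SNAT1, a sodium-coupled importer of glutamine and other neutral amino acids. It lies on the minus strand of chromosome 12, with 6 start sites between 46633678 and 46662902. Its strongest peak stood at 17.5 and 17.7 times the genome background in the parental line and at 42.4 and 50.5 times in TKO. The parental replicates were nearly equal and both TKO values were more than 2 times higher (17.6 ± 0.152 in the parental line against 46.4 ± 5.72 in TKO, SD, n = 2 each). The ratio of 2.63 was the highest of the 3 genes called in all 4 libraries, and 94.1% of the 2187 genes with a peak in every library had a lower one. The exact permutation p was again 0.333.

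The percentile of the SLC38A1 peak was 44.9 and 65.9 in the parental line and 96.4 and 97.9 in TKO, a rise of 41.7 points. Over all genes called in the 4 libraries the median rise was 27.3 points, and in 82.4% of them both TKO percentiles were above both parental ones. Widths were 388 and 397 bp in the parental line and 1288 and 1142 bp in TKO, the largest width ratio of the 3 genes, at 3.10. The summits lay in the annotated UTR at 105 and −9 bp from a TSS in the parental line and at 2 and 81 bp in TKO. A second site 245 and 332 bp from another TSS was called in TKO replicates 1 and 2 and not in the parental lists, at 17.9 and 15.5 times the background. A copy of the ATF4 with C/EBP motif lay 191.5 bp downstream of the TSS, in the UTR and within 150 bp of the summits of parental replicate 1 and TKO replicate 2.
SLC38A1 first exon, chr12:46662572-46662601, minus strand: aggggagattcTGATGCAAtcggcccggaa

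SLC38A2 encodes SNAT2, the amino acid transporter of system A that is known to rise when amino acids are scarce. It lies next to SLC38A1 on the minus strand of chromosome 12, with 3 start sites between 46759090 and 46766556. Neither parental library had a peak, the nearest parental summits being 96417 and 96301 bp away. The strongest TKO peaks stood at 31.2 and 28.8 times the genome background, 53 and 79 bp downstream of the TSS in the UTR. Their percentiles were 97.4 and 95.5, the highest of the 3 genes called in TKO only. Over all genes called in both TKO and in no parental library, the median percentile was 62.9 and 63.3 and the median height 20.1 and 21.6 times the background. The height at SLC38A2 in TKO was thus above that of many such genes. It was above the median of the 100 weakest parental peaks, as were the strongest peaks of SLC7A5 and SLC7A6. The highest of those weakest peaks stood at 29.2 times the background in parental replicate 1 and 25.8 times in replicate 2. The 31.2 of TKO replicate 1 was above both, and the 28.8 of TKO replicate 2 was below the first.

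A second SLC38A2 site, between its start sites, was called in both TKO libraries at 12.6 and 17.5 times the background, and replicate 2 had another peak at 12.4 times. The antisense gene SLC38A2-AS1 overlaps these sites, with its start 99 to 457 bp from the summits of the second site, and a peak cannot be told apart between them. Replicate 2 had a second peak in this site, at 15.5 times the background, which held an E-box 128.5 bp from its summit, shown in capitals. The higher peak of the site held none.
SLC38A2 intron, chr12:46765202-46765231, minus strand: tccgggcggcgtCACGTGaccgcggcgggc

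SLC38A5 encodes SNAT5, a system N carrier of glutamine, histidine and serine. It lies on the minus strand of the X chromosome, with 3 start sites between 48325880 and 48328648, and had no peak in any library. The nearest summits in TKO were 6101 and 6029 bp from a start site, just outside the window. Those in the parental line were 5843 and 104531 bp away. The absence holds for peaks within 5 kb at the depth of these libraries.

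**Figure D2:**
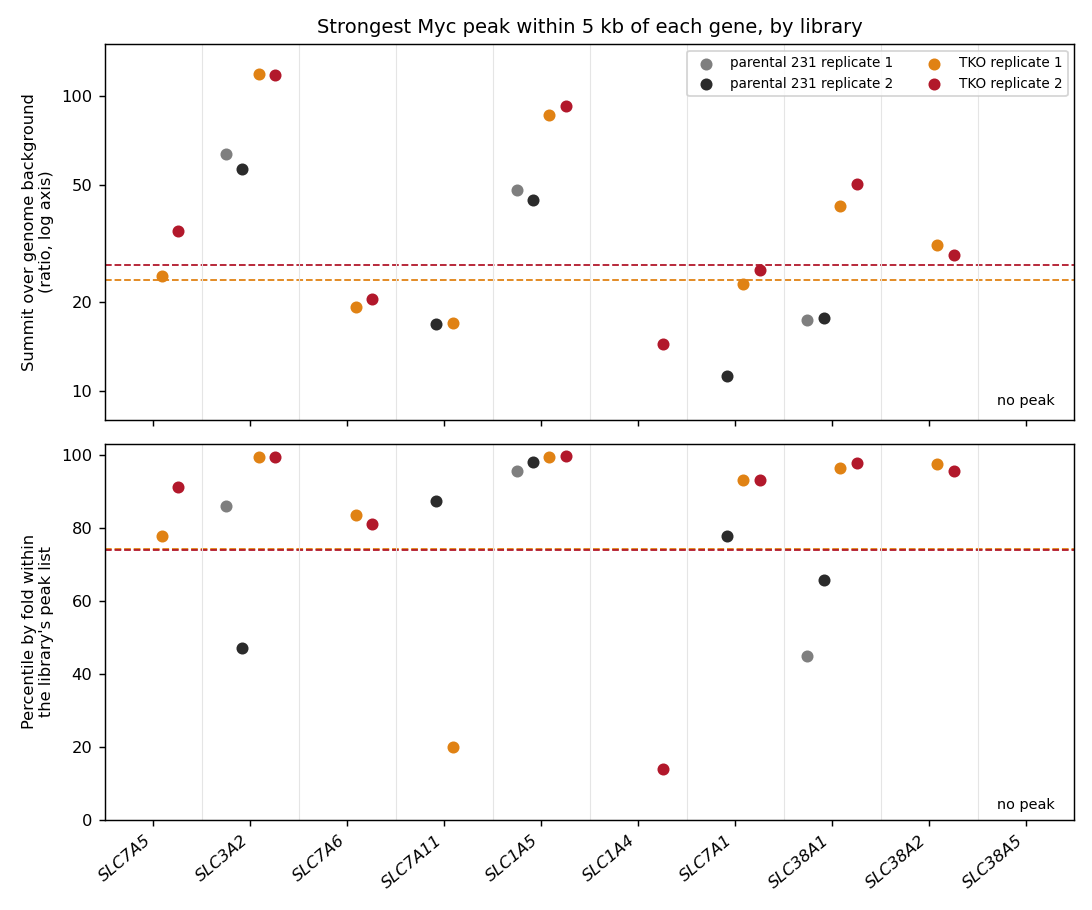
The strongest Myc peak within 5 kb of each gene is drawn for each library, as summit over genome background on a log axis (top) and as percentile by fold within the library's own list (bottom). Dashed lines are the medians over all 10199 genes with a peak in both TKO libraries, in the colour of the TKO library. TKO points lie above parental points for SLC3A2, SLC1A5, SLC38A1 and SLC7A1, the SLC7A11 points are level in height and far apart in percentile, and SLC38A5 has none.

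The 7 transporter genes with a peak in both TKO libraries stood above the typical gene of that class. The list was chosen with earlier results of these data known, so this describes it and gives no independent support. The classes also differed in make-up: 3 of the 7 genes were called in all 4 libraries, as were 2187 of the 10199. Their median summit was 31.2 and 35.03 times the genome background in TKO replicates 1 and 2, against 23.8 and 26.8 times over all 10199 such genes. Their median percentile was 96.4 and 95.5, against 74.2 and 73.9. They had a median width of 817 and 704 bp against 489 and 499 bp, and a median of 3 peaks per gene against 1 in each library. The genes differed among themselves from 19.3 times the background at SLC7A6 to 118.3 times at SLC3A2, so the medians describe the list and not each gene. In all, 7 of the 10 genes were called in both TKO libraries, where 50.7% of all genes were.

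For the 3 genes called in all 4 libraries, the median summit was 48.2 and 44.3 times the background in the parental line and 86.3 and 92.7 in TKO. Over all 2187 such genes it was 26.3 and 24.98 in the parental line and 49.8 and 50.5 in TKO. The median ratio was 1.97 for the 3 genes and 1.93 for all. SLC3A2 and SLC1A5 thus had high peaks in both cell lines and a ratio between them near the median, whereas SLC38A1 had a lower parental peak and a larger ratio. The median percentile difference was 33.0 points against 27.3, and the median width ratio 2.76 against 2.70. Peak width was larger in both TKO than in both parental libraries for all 3 genes and for 98.2% of all such genes. The narrowest peak of a list was 140 and 151 bp in the parental line and 182 and 201 bp in TKO, and the part of this difference in the width ratio was not tested beyond the subtraction given with the alternatives.

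**Figure D3:**
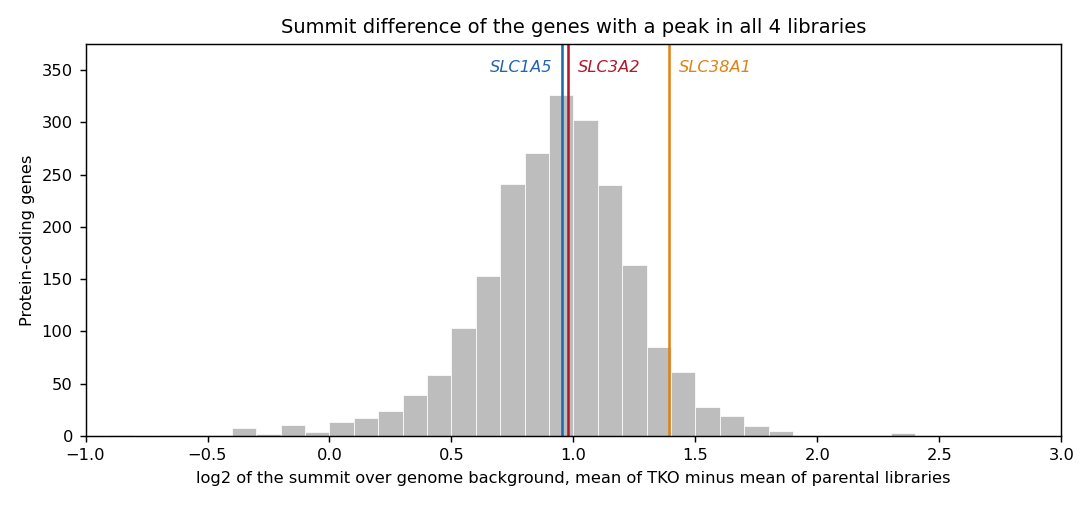
Bars count the 2187 protein-coding genes with a Myc peak in all 4 libraries by the log2 of summit over genome background, mean of the TKO minus mean of the parental libraries, in steps of 0.1. Lines mark SLC1A5 and SLC3A2, at 0.95 and 0.98 in the middle of the distribution, and SLC38A1, at 1.39 in its upper tail.

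The strongest peaks of the transporter genes lay at promoters, as did those of other genes. The summit was within 1 kb of a TSS for 3 of 3 genes in parental replicate 1, 5 of 5 in parental replicate 2, 8 of 8 in TKO replicate 1 and 7 of 8 in TKO replicate 2. The shares over all genes with a peak were 86.6%, 80.9%, 83.0% and 83.0%. The exception was the upstream peak of SLC7A5 in TKO replicate 2.

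No transporter gene had CACGTG within 50 bp of its strongest summit in any library. Over all genes with a peak the share was 22.1% and 18.9% in the parental libraries and 10.1% and 8.50% in TKO, and 1.32% to 1.41% in windows 1 kb to either side. With 3 to 8 genes per library, a count of 0 is near what these shares give and is no result about the list. In both TKO libraries, 5.87% of all genes called there had the E-box at the strongest summit, against 0 of the 7. The E-boxes under transporter peaks, printed above, numbered 8 in all, at SLC7A5, SLC1A5 and SLC38A2, and none lay within a parental peak of these genes. SLC7A5 and SLC38A2 had no parental peak, and those of SLC1A5 lay at another site. The absence thus follows from the peak calls and is no contrast in E-box use. Within 150 bp of the strongest summit, the related hexamers occurred at 3 of 3, 5 of 5, 6 of 8 and 5 of 8 genes in the order of libraries used above, against 57.5%, 56.1%, 47.5% and 45.2% of all genes.

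Other motifs linked to amino acid and oxidative stress were also looked for within 150 bp of the strongest summit, on both strands. TGATGNAA, the ATF4 with C/EBP motif, occurred at 1, 1, 1 and 2 of the genes called in the 4 libraries, against 2.03%, 2.30%, 1.91% and 1.66% of all genes. The genes were SLC38A1, SLC7A11 and SLC1A4. TGACNNNGC, the antioxidant response element, occurred at 0, 1, 3 and 2 genes against 13.5%, 15.4%, 14.9% and 15.4%, and the AP-1 motifs TGACTCA and TGAGTCA occurred at none of these summits, against 5.67% to 8.0%. In RefSeq promoters of build GRCh38.p14, which run from 250 bases before to 50 after a start, 9 of the 10 genes were matched, SLC7A11 being the missing entry. These 9 genes had 15 promoters in the table, and a gene was counted when any of them held the motif. CACGTG occurred there at SLC7A5, SLC1A5 and SLC38A5 and in 7.26% of all 35116 promoters. The ATF4 with C/EBP motif occurred at SLC3A2, SLC1A5, SLC7A1, SLC38A1 and SLC1A4 and in 3.62% of all promoters. The antioxidant response element occurred at 5 genes against 13.3%, the related E-box hexamers at 4 against 31.4%, and AP-1 at SLC3A2 and SLC38A1 against 4.95%. SLC38A5, the gene with no Myc peak, thus had the letters of an E-box in its promoter. A match is a description of letters and not of binding.

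Genes of the same pathways were read beside the transporters from lists drawn up for the purpose. Of 37 other amino acid carriers, 3 and 3 had a peak in the parental libraries and 14 and 17 in TKO, and 20 had none. SLC1A3, a glutamate and aspartate carrier, and SLC38A6, a relative of SLC38A1, were those called in all 4 libraries. Of the 10 called in both TKO and no parental library, SLC6A9, SLC43A1 and SLC7A2 had the highest mean percentile in TKO. SLC6A9, a glycine transporter, stood at 26.8 and 28.8 times the genome background in TKO. SLC43A1, a carrier of branched-chain amino acids, stood at 32.7 and 45.3 times. SLC7A2 was low in height, at 8.18 and 14.4 times. The median of the 100 weakest peaks was 12.6 and 13.4 times in these libraries. The remaining 5 were SLC1A7, SLC36A4, SLC6A20, SLC7A10 and SLC43A2, of which SLC1A7 was also called in parental replicate 2 and SLC36A4 in parental replicate 1. The median percentile of the carriers called was 50.2 and 53.0 in TKO, where that of the 8 transporter genes called in each was 94.8 and 94.25. In the lists described next it was 85.1 and 80.3 for amino acid response and 89.0 and 93.0 for glutamine use. A high median was thus not particular to the transporter genes.

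Of 20 genes of the amino acid response, in which the kinase EIF2AK4 (GCN2) leads to translation of ATF4, 4 and 7 were called in the parental replicates and 18 in TKO replicate 1 as in replicate 2. ATF4, CEBPB, ATF5 and PSPH, the last an enzyme of serine synthesis, were called in all 4 libraries, and SESN2 and CBS in none. A further 11 were called in both TKO and no parental library. ATF4 itself stood at 23.4 and 19.3 times the genome background in the parental line and at 45.4 and 58.7 times in TKO. Of the TKO-only genes, ASNS (asparagine synthetase), ATF3 and TRIB3 had the highest mean percentile. ASNS stood at 39.4 and 41.2 times the background in TKO. SHMT2 and MTHFD2, mitochondrial enzymes of serine and folate metabolism, and VLDLR were called in parental replicate 2 and in both TKO libraries.

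Of 11 genes of glutamine use, 7 and 4 were called in the parental replicates and 10 in TKO replicate 1 as in replicate 2. PPAT, CAD and CTPS1, which spend glutamine nitrogen on nucleotide synthesis, were called in all 4 libraries. PPAT stood at 45.2 and 41.1 times the background in the parental line and at 86.3 and 99.9 times in TKO, heights like those of SLC1A5. GLUD1, GOT2 and GFPT1 were called in parental replicate 1 and in both TKO libraries, and GPT2 was called in parental replicate 2 in place of replicate 1. GLUL and GOT1 were called in TKO only, and GLS2, a glutaminase, in no library.

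**Figure D4:**
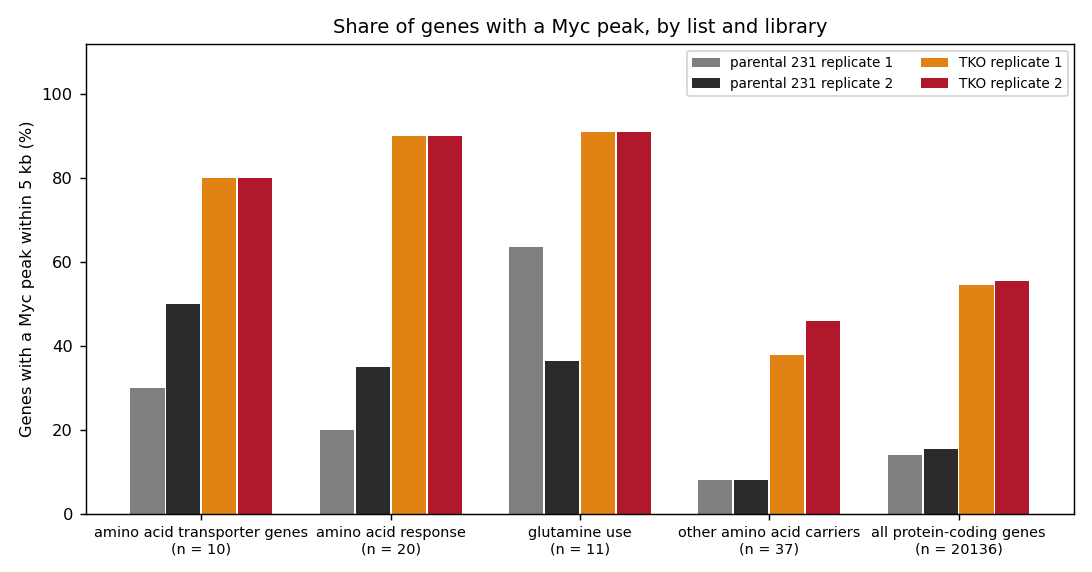
Bars give the share of genes with a Myc peak within 5 kb of a TSS in each library (%), for the amino acid transporter genes, the lists of amino acid response, glutamine use and other amino acid carriers, and all protein-coding genes. In every list the TKO bars are above the parental bars. The transporter genes stand at 8 of 10 in each TKO library, and all genes at 54.6% and 55.4%.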

How the data were processed

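Myc ChIP-seq was measured in 2 parental MDA-MB-231 and 2 TKO libraries, grouped by sample title. The input samples had no list analysed here. The authors aligned single-end reads to hg19 with Novoalign (3.08.02) and called peaks with MACS2 (2.1.1.20160309) per library against input, tools and versions being those of the submitters' processing notes. How duplicate reads were handled is not given in the sources used here. The deposited lists give, for each peak, the authors' fold (a ratio of summit pileup to local background), their −log10 p-value and −log10 q-value, and a score of 10 times the −log10 q-value without decimals. The lowest −log10 q-value was 2.03 to 2.07 in the lists.

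From these values a whole number of summit reads and the local background were solved for each peak, which matched the p-value within 0.002 (−log10) for 100% of peaks. The genome background was the lowest local background of a list. Depth was derived with a genome size of 2700000000 and the narrowest peak as extension length. Start sites were those of basic transcripts (GENCODE v44 lifted to GRCh37), and a gene's strongest peak had the highest fold within 5 kb. Percentiles were mid-ranks by fold. Sites were peaks overlapping by at least 1 bp. Printed windows reach 75 bp from a summit and leave out exons of coding genes, except stretches of 30 bases around a motif. Exact permutation tests, two-sided, compared the cell lines over the 4 libraries, with summit on the log2 scale. No test across genes was made, because genes and peaks are not replicates.

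All 10 transporter genes are named. Named too are genes starting within 1 kb of their summits, the 3 genes most like the highest-ranked, and, of other lists, members of a class of 5 or fewer or the 3 of highest mean percentile in TKO. Which of these list genes are given with values was chosen after their values were seen. A member of the glutamine list is counted but not reported here by name. The members and lists were chosen with earlier results of these data known. Recovery of summit reads and offsets from start sites were tested on simulated data, and the permutation test on splits of known p-value. The other steps were not tested in this way. Calculations used Python 3.11.15, numpy 2.4.6, pandas 2.3.3, scipy 1.17.1, pysam 0.24.0, matplotlib 3.10.9 and samtools 1.23.1.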

Additional observations from a re-analysis of the deposited data

How the results depend on the processing

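The difference between cell lines in the number of transporter genes with a peak, 4 genes, was 3 with peaks of fold 5 or more and 1.5 when each list was cut to its 3720 strongest peaks. In lists so cut, 1 gene in place of 3 was called in both TKO and no parental library. The median summit ratio of the genes called in all 4 libraries, 1.97, was 2.63 with the peak nearest a TSS, 2.70 with the authors' fold over local background and 2.59 with summit reads per M recovered reads. The median percentile difference, 33.0 points, was 5.19 when peaks were ranked by −log10 p-value, and the median width ratio, 2.76, was 4.14 after the narrowest width was subtracted. Counting the related hexamers as well, 3 of 7 genes in place of 0 had an E-box within 50 bp of the strongest summit in both TKO libraries. The share of all genes is not given for this setting, so the count is no result about the list. Within 150 bp, the related hexamers alone occurred at 47.5% and 45.2% of all genes in TKO replicates 1 and 2. Taking the peak nearest a TSS turned SLC1A5 around, to a percentile difference of −17.2 points and a summit ratio of 0.582. This was because the nearest TKO peak was then a weaker one at another start site. At SLC3A2 the same choice moved parental replicate 1 alone to a lower peak at the downstream start sites. Leaving out each library in turn gave differences of 3 to 5 genes called and percentile differences of 13.5 to 33.0 points. Summit ratios were 1.86 to 2.12 and width ratios 2.43 to 3.13. The 2.12 and 2.43 came without parental replicate 1, where SLC7A1 was called in every library kept and also entered the medians. The lowest percentile difference came without parental replicate 2. The cause of the other changes was not tested. The other 78 values of these results under the alternatives stayed within the spread between replicates, or within 1.5 times for counts, as did 67 of those of SLC3A2, SLC1A5 and SLC38A1 singly, while 18 moved and 2 were the reversals given.

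Replicate numbers did not pair the libraries. Deviations of replicate 1 from replicate 2 correlated across the 2187 genes called in all 4 libraries with r = 0.0723 between the cell lines, and genes are not independent replicates. With the replicate block the summit ratio was 1.97 and the width ratio 2.78. Depth limits the lower peaks: the strongest peaks of SLC7A11, SLC7A1 and SLC1A4 rested on 14 to 31 reads, those of SLC7A6 on 26 and 20, and the parental peaks of SLC38A1 on 24 and 22.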
